A study of Mus musculus with 8 samples.

Results

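Wnt proteins are secreted lipid-modified ligands that bind Frizzled receptors on the cell surface, alone or with the co-receptors Lrp5 and Lrp6. In the canonical branch this stabilises β-catenin, which enters the nucleus and acts with TCF/LEF factors. Secreted proteins set how much ligand reaches a receptor: Sfrp family members bind Wnts outside the cell, and Dickkopf (Dkk) proteins bind the co-receptors. In preadipocytes, canonical Wnt signalling is known to hold back differentiation, and Wnt10b, Wnt10a and Wnt6 are the ligands best known for that.

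The genes described here are 4 Wnt ligands (Wnt6, Wnt10a, Wnt10b and Wnt5a), 4 secreted modulators (Sfrp1, Sfrp2, Dkk2 and Dkk3) and Axin2, a β-catenin target that encodes a scaffold of the complex that destroys β-catenin. They were chosen by name, with earlier results of these data known, and each array probe was matched to them through its RefSeq accession. All 9 had a probe, 10 probes in all because Axin2 had 2, out of 39383 probes on the array. A filter on dim probes left 7 of the 9 genes among the 26464 genes and unnamed transcripts tested, of which 17552 had a gene name. Sfrp1 and Dkk2 did not pass it.

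The samples were mouse 3T3-L1 cells, an established line of preadipocytes that turns into fat-like cells in culture. WT denotes the wild-type cells, and sh8 denotes cells carrying a stable short hairpin RNA, number 8, against the long non-coding RNA slincRAD. Each line was hybridised to 1 Agilent 1-colour array on each of days -2, 0, +2 and +4, so 8 arrays in all, and the comparison asks what the hairpin changes before and during adipogenesis. Both lines grew in medium with 10% newborn calf serum and, from confluence on day 0, received 0.5 mM 3-isobutyl-1-methylxanthine, 1 µM dexamethasone and 167 nM insulin, the hormone mix that starts differentiation. Cells of days -2 and 0 are called "before induction" and those of days +2 and +4 "after induction". No line with a control hairpin was analysed here, the labels do not say whether sh8 is 1 clone, and the level of slincRAD itself was not analysed here.

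Levels are log2 of the processed intensity minus the 75th percentile of the same array, which sets a probe at the percentile to 0. The percentile ran from 761 to 1242 scanner units, no spot was saturated, and between 64.9% and 81.7% of probes were well above background, a flag the scanner software sets for each spot. Levels of different probes cannot be compared. The arrays fell into 2 scans: the first held days -2 and 0, the second days +2 and +4. The share of probes well above background was 64.9% to 68.5% in the first scan and 72.4% to 81.7% in the second. Induction and scan therefore cannot be told apart, and in both scans the sh8 arrays took the last 2 positions. Arrays of the second scan also stood apart in genes that 3T3-L1 cells are not known for. The summed level of 9 lung epithelium markers, in multiples of the 75th percentile, was 6.90 to 10.6 on the 4 arrays of the first scan and 17.2 to 23.2 on the 4 of the second, and that of 3 red blood cell markers was 0.05 to 0.08 and 1.07 to 1.94. Lamp3, the brightest lung marker, led that sum. Its log2 levels were 2.65 to 3.35 in the first scan and 2.68 to 3.71 in the second. They overlapped between the scans, as did those of Cldn18. The other lung markers read higher on every array of the second scan. Sftpc, not well above background in the first scan, had log2 levels of -7.93 to -7.23 there and 1.02 to 1.62 in the second. All 8 preadipocyte and fibroblast markers were well above background on every array, and of 8 adipocyte markers 5 or 6 were so in the first scan and all 8 in the second.

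**Figure D1:**
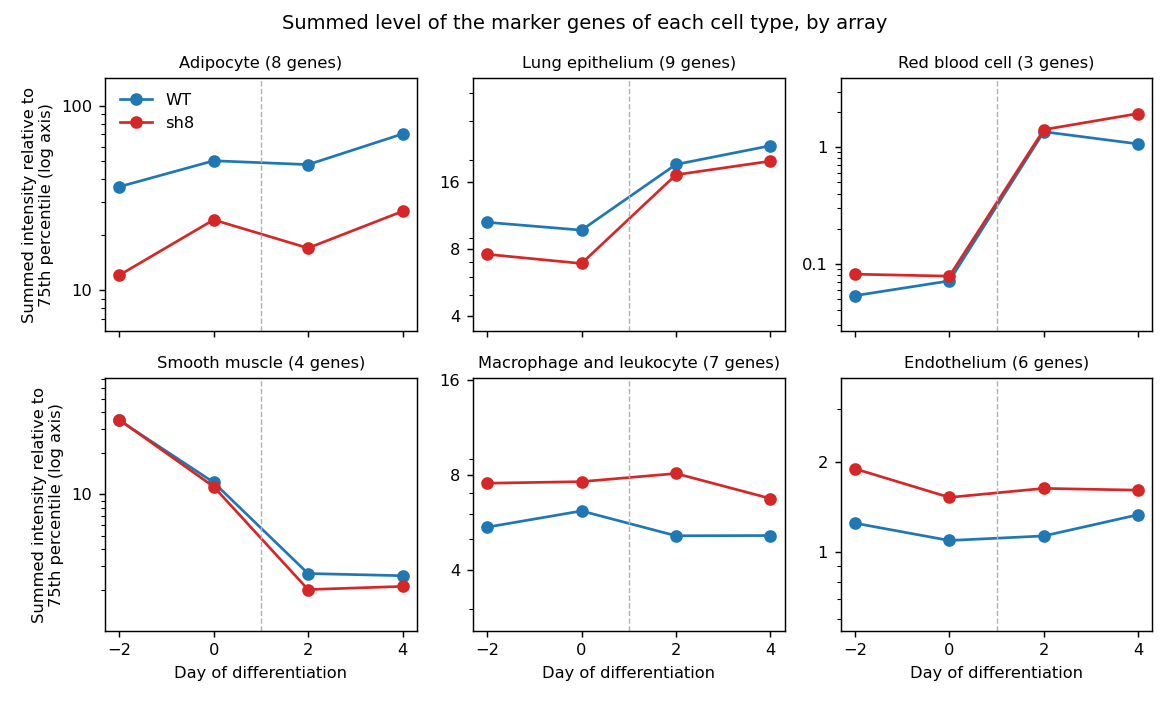
Summed intensity of the marker genes of 6 cell types on each array, in multiples of the array's 75th percentile (log axis, each panel with its own range), against the day of differentiation. Blue points are WT and red points sh8, 1 array each, and the dashed line separates the 2 scans. The lung epithelium sum is 17.2 to 23.2 in the second scan against 6.90 to 10.6 in the first, and the adipocyte sum is 36.4 to 70.3 in WT against 12.0 to 26.8 in sh8.

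RefSeq promoter sequence of the GRCm38.p6 build was given for 5 of the 9 genes, and the 250 bases before the start are printed for Sfrp2 and Wnt6, the genes that differed between the lines, and for Wnt10b, a ligand measured on all arrays that did not pass that test. The windows are chr3:83766071-83766320 on the plus strand for Sfrp2, chr1:74771642-74771891 on the plus strand for Wnt6 and chr15:98778151-98778400 on the minus strand for Wnt10b. Capitals mark matches, on either strand, to any of 4 motifs: the TCF/LEF core (CTTTGA or CTTTGT), a C/EBP element (TTNNGNAA), the GC box (GGGCGG) and the TATA box (TATAAA).
Sfrp2: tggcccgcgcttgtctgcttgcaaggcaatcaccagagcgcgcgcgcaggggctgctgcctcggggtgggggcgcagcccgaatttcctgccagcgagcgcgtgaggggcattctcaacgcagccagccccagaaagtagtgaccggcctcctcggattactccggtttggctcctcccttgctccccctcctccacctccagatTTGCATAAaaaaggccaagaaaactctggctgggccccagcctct
Wnt6: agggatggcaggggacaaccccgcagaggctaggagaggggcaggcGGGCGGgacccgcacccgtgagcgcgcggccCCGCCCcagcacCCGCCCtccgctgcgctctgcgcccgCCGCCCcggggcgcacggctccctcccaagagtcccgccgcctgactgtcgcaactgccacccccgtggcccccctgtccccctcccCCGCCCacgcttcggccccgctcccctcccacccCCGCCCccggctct
Wnt10b: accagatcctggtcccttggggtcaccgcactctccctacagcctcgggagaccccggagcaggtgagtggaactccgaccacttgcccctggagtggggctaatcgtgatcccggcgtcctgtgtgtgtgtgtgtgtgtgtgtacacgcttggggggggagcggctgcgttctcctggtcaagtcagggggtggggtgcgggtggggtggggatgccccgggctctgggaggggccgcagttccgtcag
The Sfrp2 window held 1 match, to the C/EBP letters, and 36.8% of the 32851 mouse promoter windows of this length held at least 1. The Wnt6 window held 6 GC boxes, a motif found in 32.7% of windows, and its GC content was 79.6% beside a median of 52.4%. The Wnt10b window held none of the 4 motifs. No TCF/LEF core, found in 27.6% of windows, and no TATA box, found in 12.4%, lay in these 3 windows, and no matches overlapped. The window of Axin2 held 2 GC boxes, and that of Dkk2 held 1 TCF/LEF core, 2 GC boxes and 1 TATA box. A match is a string of letters, not a measured binding site.

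Sfrp2 and Wnt6 were lower in sh8 than in WT on all 4 days and were the 2 of the 7 tested genes that passed the test between the lines. Sfrp2 was 18.4-fold lower and Wnt6 4.22-fold lower. These sizes depended on the processing. With normexp background correction and quantile scaling the log2 differences were -2.79 for Sfrp2 and -1.67 for Wnt6, beside -4.21 and -2.08. In the main setting Wnt5a, Wnt10b, Wnt10a, Dkk3 and Axin2 did not pass. Among all genes and transcripts tested, 27.1% passed the same test, so 2 of 7 is close to the share of the whole array. The test was limma with day and line as terms over the 8 arrays, with Benjamini and Hochberg adjustment over everything tested and a threshold of 0.05. Each group is 1 array, so errors rest on how the line difference varied over the 4 days. In limma that spread is drawn toward the spread of everything tested, so an SE is not the gene's own spread alone. In RNA of whole cultures, fewer cells of a type and less RNA per cell cannot be told apart.

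**Figure D2:**
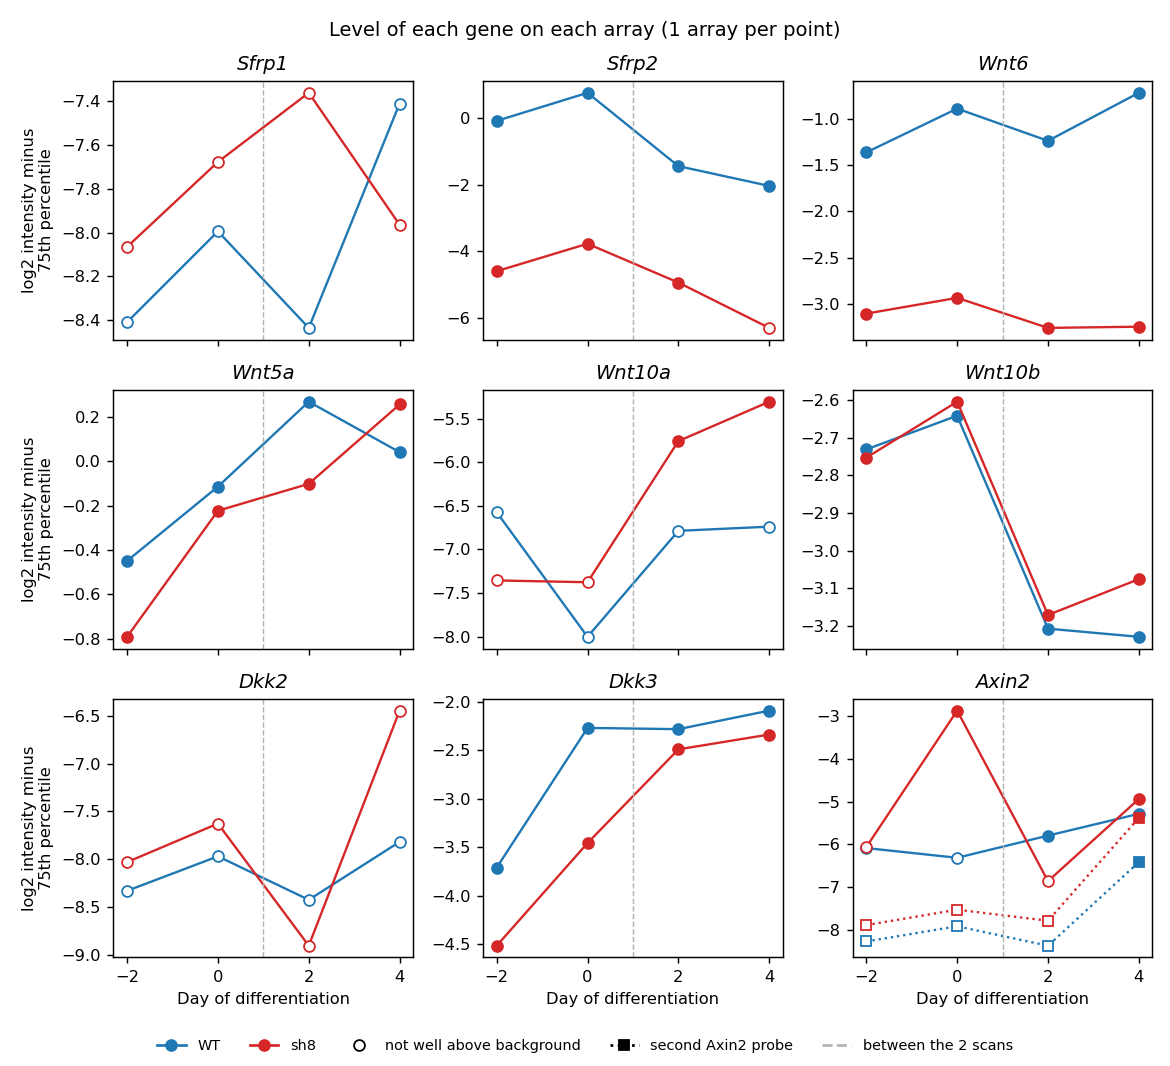
Level of each of the 9 genes on each array (log2 intensity minus the array's 75th percentile) against the day of differentiation, each panel with its own axis. Blue is WT, red is sh8, open symbols are spots not well above background, and squares with dotted lines are the second Axin2 probe. The lines do not overlap for Sfrp2 and Wnt6: WT Sfrp2 is -2.03 to 0.77 and sh8 Sfrp2 -6.30 to -3.77.

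Wnt6 is a canonical ligand that is expressed in preadipocytes. Its WT levels were -1.36, -0.89, -1.24 and -0.72 on days -2, 0, +2 and +4. The sh8 levels were -3.10, -2.93, -3.25 and -3.24 on the same days. Every sh8 array lay below every WT array, and all 8 spots were well above background, at 80.4 to 514.7 scanner units. The difference was -1.74, -2.04, -2.01 and -2.52 on the successive days, and the fitted value was -2.08 ± 0.15 (SE) with an adjusted p of 0.00857 in limma. That placed Wnt6 94th from the lowest among the 17552 named genes. Its level before and after induction differed by -0.04 ± 0.15 (adjusted p = 0.846 in limma). The line difference missed the threshold in limma without day 0 (-2.09, adjusted p = 0.0540), day +2 (-2.10, 0.0587) or day +4 (-1.93, 0.0584), and in the first scan alone (-1.89, 0.120), while the second scan alone kept it (-2.27, 0.0320). No gene or transcript passed without day +2, without day +4 or in the first scan alone, and 81 passed without day 0.

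Wnt10a lies next to Wnt6 on chromosome 1, with no protein-coding gene between them in the RefSeq table, and encodes another canonical ligand. Its spot was dim. The WT levels were -6.57, -8.00, -6.79 and -6.74, and none was well above background. The sh8 levels were -7.36, -7.38, -5.76 and -5.30, and only the arrays of days +2 and +4 were well above background, at 16.1 and 19.3 scanner units. The gene thus passed the filter through 2 sh8 arrays of the second scan, where the lung and red cell markers were also higher, and their part in its level was not tested. With every WT spot and every spot before induction not well above background, no fold is given. In limma neither the line (adjusted p = 0.299) nor induction (adjusted p = 0.0683) passed. Both passed when day -2 was left out (0.0452 and 0.0221), as did the line in the second scan alone (0.0385), but these fits rest on spots at background and are not read as differences.

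Wnt10b is the ligand most often named as a brake on adipogenesis. Its WT levels were -2.73, -2.64, -3.21 and -3.23 in day order, and its sh8 levels were -2.75, -2.60, -3.17 and -3.08. The lines overlapped closely at each day, with differences of -0.02, 0.04, 0.04 and 0.15. The fitted line difference was 0.05 ± 0.09, with a 95% interval from -0.18 to 0.28 (adjusted p = 0.679 in limma), and its sign turned to -0.13 with quantile scaling. In both lines the arrays after induction lay below those before it, without overlap. The fall was by 0.49 ± 0.09 on the log2 scale, or 1.40-fold (adjusted p = 0.0147 in limma). From day 0 to day +2 the difference was -0.57 ± 0.12, which just missed the threshold (adjusted p = 0.0518 in limma). With quantile scaling that step passed (-0.68, 0.0438). The fall after induction missed the threshold without day 0 (-0.43, 0.0821), without day +2 (-0.47, 0.0559) and without day +4 (-0.51, 0.0791).

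Wnt5a encodes a ligand known chiefly for β-catenin-independent signalling. It was well above background on all arrays, at 677.2 to 1068 scanner units. The WT levels were -0.45, -0.11, 0.27 and 0.04, and the sh8 levels were -0.79, -0.22, -0.10 and 0.26. The lines overlapped: sh8 was below WT on days -2, 0 and +2 and above it on day +4. The fitted line difference was -0.15 ± 0.13, with a 95% interval from -0.50 to 0.20 (adjusted p = 0.424 in limma). After induction the level was 0.51 ± 0.13 higher, or 1.42-fold, which passed (adjusted p = 0.0401 in limma). That call was lost with quantile scaling (0.0509), without the filter (0.0502) and without any 1 of the 4 days. The estimate was 0.28 without day -2, 0.74 without day 0, 0.54 without day +2 and 0.48 without day +4.

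Sfrp2 encodes a secreted Frizzled-related protein that binds Wnts outside the cell. Its WT levels were -0.08, 0.77, -1.44 and -2.03 on days -2, 0, +2 and +4. The sh8 levels were -4.60, -3.77, -4.94 and -6.30. The lowest WT array was above the highest sh8 array, and both lines peaked on day 0 and were lowest on day +4. In scanner units WT ranged from 207.5 to 1585 and sh8 from 9.66 to 68.9, and 3 of the 4 sh8 spots were well above background, all but day +4, which read 9.66. The line difference was -4.52, -4.54, -3.50 and -4.27 on the successive days, and the fitted value was -4.21 ± 0.21 (SE; adjusted p = 0.00801 in limma). Sfrp2 ranked 10th from the lowest among the named genes. In limma the difference missed the threshold when day +2 was left out (-4.44, adjusted p = 0.0587), when day +4 was left out (-4.18, 0.0584) and in the first scan alone (-4.53, 0.120), while the second scan alone kept it (-3.88, 0.0306). In the fits that missed it, no gene or transcript passed.

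Over time Sfrp2 was the gene of the 7 with a call between neighbouring days. From day 0 to day +2 it fell by 2.20 in WT and by 1.17 in sh8, and the fitted fall was by 1.69 ± 0.29 on the log2 scale, or 3.22-fold (adjusted p = 0.0324 in limma). Among everything tested 11.9% passed for that step, beside 1 of 7 here. Without day +4 the call was lost at the same estimate (adjusted p = 0.0760), as it was with normexp background correction (-1.30, 0.0967). After against before induction the fall was by 1.76 ± 0.21, or 3.38-fold (adjusted p = 0.00521 in limma), and without day +4 it was -1.27 and missed the threshold (0.0722). The step from day -2 to day 0 was 0.84 in WT and 0.82 in sh8 and did not pass (0.83 ± 0.29, adjusted p = 0.171 in limma). The step from day +2 to day +4 was -0.59 in WT and -1.36 in sh8 and did not pass either (-0.98 ± 0.29, adjusted p = 0.838 in limma).

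Sfrp1, the related inhibitor, was well above background on no array. Its spot read 2.56 to 5.27 scanner units, and its levels of -8.43 to -7.36 in both lines have no order. Dkk2, a secreted ligand of the Lrp5 and Lrp6 co-receptors, was also well above background on no array, at 1.82 to 8.72 scanner units. No fold is given for either gene.

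Dkk3 encodes a divergent Dickkopf family protein that, unlike Dkk2, is not known for binding Lrp5 and Lrp6. It was well above background on all arrays, at 51.3 to 199.1 scanner units. The WT levels were -3.71, -2.27, -2.28 and -2.09, and the sh8 levels were -4.51, -3.46, -2.49 and -2.34. In WT the level was low on day -2 and level from day 0 on, whereas in sh8 it was low on days -2 and 0, and on each day sh8 lay below WT. The line difference was -0.80, -1.19, -0.21 and -0.25 by day. The fitted value of -0.61 ± 0.20 did not pass (adjusted p = 0.0803 in limma), and it passed with normexp correction (-0.49, 0.0248) and with the authors' deposited table of values (-0.75, 0.0494).

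Dkk3 was higher after than before induction by 1.19 ± 0.20, or 2.28-fold, which passed (adjusted p = 0.0125 in limma). The arrays of WT gave a difference of 0.80 and those of sh8 1.57. Without day -2 the estimate was 0.56 and missed the threshold (0.195), and without day +4 it missed it as well (0.0714). From day -2 to day 0 Dkk3 differed by 1.44 in WT and 1.06 in sh8 (fitted 1.25 ± 0.28, adjusted p = 0.0947 in limma). The difference between the lines' responses to induction was 0.77 ± 0.19, which had an unadjusted p of 0.0188 in limma and an adjusted p of 0.184. No gene or transcript passed for that interaction (0% called, 5260 at an unadjusted p under 0.05), and none of the 7 did. With normexp correction 1109 of the 26464 passed, Sfrp2 among them.

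Axin2 is the member of the group that reads out β-catenin activity, and its 2 probes were dim and did not move alike. The brighter probe read -6.09, -6.31, -5.79 and -5.28 in WT and -6.06, -2.86, -6.86 and -4.93 in sh8. It was well above background on WT days +2 and +4 and on sh8 days 0 and +4. The sh8 array of day 0 stood apart at 129.4 scanner units, beside 7.47 to 24.9 on the other 7 arrays. The second probe read -8.28, -7.92, -8.38 and -6.42 in WT and -7.89, -7.53, -7.79 and -5.38 in sh8. It was well above background on day +4 in both lines only, and the sh8 array of day 0 did not stand apart on it. For the brighter probe the line difference was 0.69 ± 0.76 (SE), with a 95% interval from -1.27 to 2.65 (adjusted p = 0.517 in limma). Without day 0 it was -0.23. Of the 4 spots of days -2 and 0, only that of sh8 day 0 was well above background. After against before induction gave -0.39 ± 0.76 (adjusted p = 0.715 in limma), and the mean of both probes gave 0.26.

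**Figure D3:**
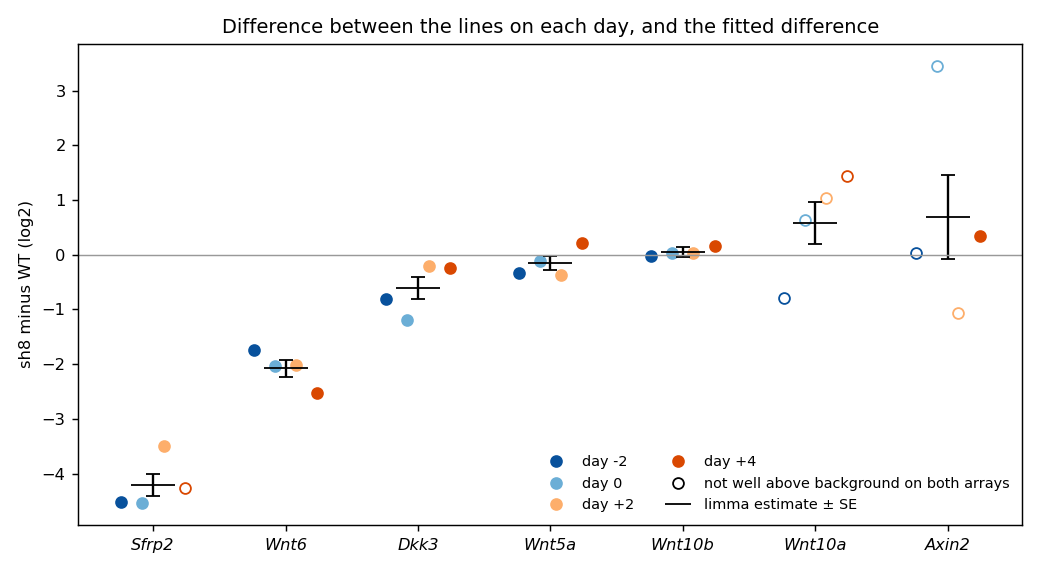
Difference between sh8 and WT (log2) for the 7 tested genes, by day as coloured points, with the limma estimate and its SE as a black bar; open points are days on which the spot was not well above background on both arrays. Sfrp2 (-4.21 ± 0.21) and Wnt6 (-2.08 ± 0.15) lie below 0 on all 4 days, as does Dkk3. The days of Wnt5a, Wnt10a, Wnt10b and Axin2 lie on both sides of 0.

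Counted over time, none of the 7 passed from day -2 to day 0 or from day +2 to day +4, steps for which 0% of everything tested passed (6727 and 1441 at an unadjusted p under 0.05). For the earlier step 1746 of everything tested passed with normexp correction and 570 with a filter of at least 4 arrays, and again none of the 7. After against before induction 4 of the 7 passed, beside 36.3% of everything tested: Dkk3 and Wnt5a were higher, Sfrp2 and Wnt10b lower. These 4 calls set the second scan against the first. The summed lung and red cell markers were higher on the same arrays, and their part in the calls was not tested. Without day +4 none of the 7 passed, and without day 0 or without day +2 only Sfrp2 and Dkk3 did. Without day -2 the 3 that passed were Sfrp2, Wnt10b and Wnt10a, the last on spots at background. Calls over everything tested fell in these fits too, from 9604 of 26464 with all arrays. They numbered 2842 without day +4, 7212 without day 0, 7192 without day +2 and 5130 without day -2.

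Marker lists also moved with the line. The summed level of 8 adipocyte markers was 36.4 to 70.3 in WT and 12.0 to 26.8 in sh8. Of the 8, Pparg, Fabp4 and Lpl were lower in sh8 on all 4 days. Adipoq was lower in sh8 on days +2 and +4, the only days on which its spots were well above background. Cebpa and Cidec were higher in sh8 on days 0, +2 and +4, but the WT Cidec spot of day 0 was not well above background. The list's median was lower in sh8 on day +4 (-2.45 against -0.68) and higher or within 0.01 on the other days. The summed level of 7 macrophage and leukocyte markers was 5.13 to 6.15 in WT and 6.73 to 8.08 in sh8, and that of 6 endothelial markers was at most 1.34 in WT and 1.53 to 1.90 in sh8. Every gene of these 3 lists was well above background on at least 1 array. Their part in the difference of Sfrp2 and Wnt6 was not tested. Those differences kept their direction within each scan, and so did the line differences of the 3 summed marker levels, so this does not bear on that part.

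The other 97 genes of the pathway all had a probe, and 87 were tested. Of these, 13 were higher and 10 lower in sh8, 23 of 87 beside 27.1% of everything tested. The median difference was 0.05, beside 0.13 over all genes and transcripts. With quantile scaling, which took the median of everything tested to 0.02, the counts were 8 higher and 9 lower and the median -0.05. Every gene named in the next paragraphs as passing between the lines missed the threshold when day +2 or day +4 was left out and in the first scan alone, as everything tested did: no gene passed in limma in those fits (9446, 8654 and 8388 at an unadjusted p under 0.05). Without day 0, Dact1 alone of them passed, and without day -2 Ccnd1, Ccn4, Notum, Rspo4, Lgr4, Dvl2, Dvl3, Tcf7 and Wnt16 missed the threshold as well. In the second scan alone those 9 missed it too, with Ryk and Tnks2. With scan as a block in place of day, Ccnd1 (adjusted p = 0.136 in limma), Lgr4 (0.141), Tcf7l1 (0.0934), Tcf7 (0.188) and Dvl3 (0.0547) missed it.

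Of 15 other Wnt ligands, 2 were higher and 2 lower in sh8. Wnt9a was lower by 1.00 ± 0.09 and Wnt3 by 1.19 ± 0.17, the latter well above background on 3 sh8 arrays. Wnt5b was higher by 0.74 ± 0.08. Wnt16 was higher by 0.51 ± 0.10, a call lost with every other scaling (quantile, normexp with quantile, and the authors' table), and its other probe gave -0.22. The list's median was 0.16 and turned to -0.11 with quantile scaling. Porcn, which adds the lipid to Wnts, and Wls, which carries them to the surface, did not pass, with estimates of -0.05 ± 0.13 and -0.08 ± 0.10.

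Among the 16 other secreted modulators 4 of 11 tested were higher in sh8 and none lower, beside 4438 higher and 2723 lower of the 26464 tested. The median was 0.44, and with quantile scaling and normexp correction 3 passed and it was 0.16 and 0.05. The list was led by R-spondins, secreted proteins that strengthen Wnt signalling through Lgr receptors. Rspo3 read -2.57, -3.12, -2.94 and -3.09 in WT and -0.52, 0.18, 0.35 and 0.22 in sh8. Rspo2 read -2.39, -1.89, -2.17 and -2.02 in WT and -0.41, 0.92, -0.72 and -0.11 in sh8. For both genes every sh8 array lay above every WT array, the opposite order to that of Sfrp2 and Wnt6. The fitted difference was 2.99 ± 0.26 for Rspo3 (adjusted p = 0.00989 in limma) and 2.04 ± 0.24 for Rspo2 (adjusted p = 0.0128 in limma). Notum, an enzyme that removes the lipid from Wnts, was higher by 0.60 ± 0.11. Rspo4 was higher by 0.44 ± 0.11, a call lost with every other scaling (0.16 with quantile scaling).

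**Figure D4:**
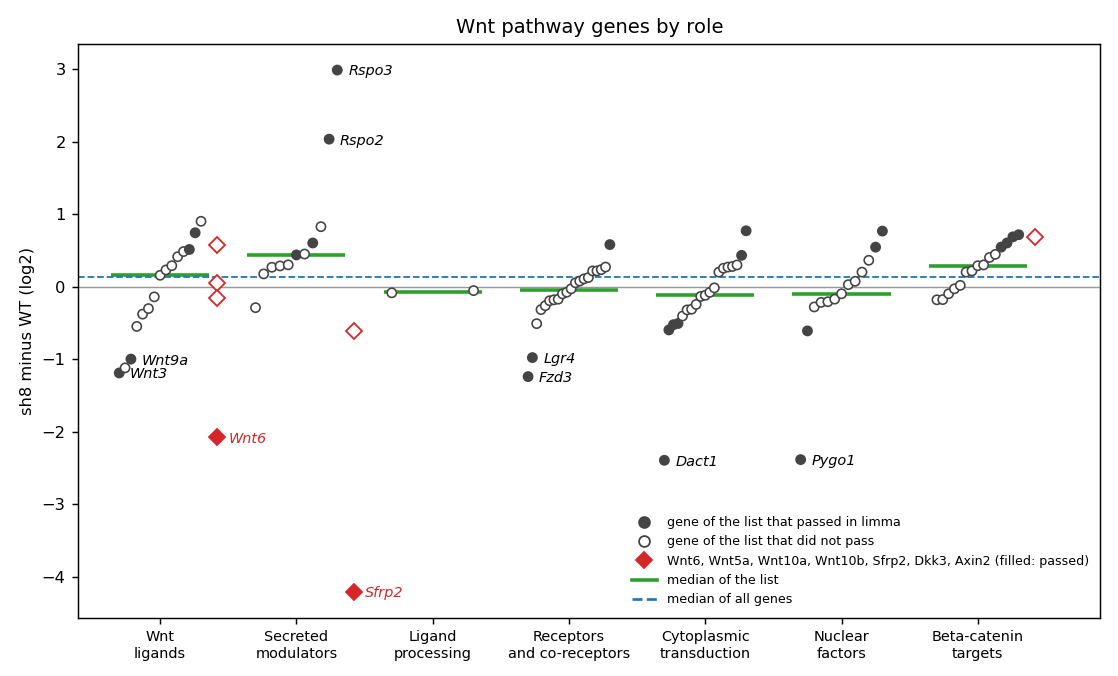
Difference between sh8 and WT (log2) for each tested gene of the Wnt pathway, grouped by role; filled circles passed in limma, open circles did not, green bars are list medians and the dashed line is the median of all genes and transcripts (0.13). Red diamonds are the 7 tested genes of the report. Rspo3 (2.99) and Rspo2 (2.04) lie at the top, and Sfrp2 (-4.21), Dact1 (-2.39), Pygo1 (-2.38) and Wnt6 (-2.08) at the bottom.

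Of 20 tested receptors and co-receptors, Ryk was higher by 0.58 ± 0.09, and Fzd3 and Lgr4, the latter an R-spondin receptor, were lower by 1.24 ± 0.19 and 0.98 ± 0.20. Of 19 cytoplasmic components, 2 were higher and 4 lower, and with quantile scaling 0 and 3. Dact1, which binds Dishevelled, was lower by 2.39 ± 0.10 on a probe well above background on 2 of 4 sh8 arrays, and by 0.86 on its other probe. Tnks2, a tankyrase that marks axins for destruction, was lower by 0.52 ± 0.10 and Dvl2 by 0.51 ± 0.10. Dvl3 was higher by 0.43 ± 0.10, a call lost with every other scaling. Of 13 nuclear factors, 2 were higher and 2 lower. Pygo1, a β-catenin co-activator, was lower by 2.38 ± 0.27 and Tcf7l1 by 0.61 ± 0.13, and Bcl9l was higher by 0.77 ± 0.10.

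The list of other β-catenin targets had 4 of 15 tested genes higher in sh8 and none lower, again beside 27.1% of everything tested in either direction. The median was 0.29. With quantile scaling 3 passed and the median was 0.13, and with normexp correction 4 passed and it was 0.04. Ccnd1, which encodes cyclin D1, was higher by 0.72 ± 0.12, Ccn4 by 0.69 ± 0.13 and Notum by 0.60 ± 0.11. Tcf7, the fourth, was well above background on 1 array of each line (0.55 ± 0.11), and with normexp correction its estimate was -0.03. Axin2, the target that stands among the 9 genes, did not pass.

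From day 0 to day +2, 6 of the 87 other pathway genes passed as higher and 3 as lower, 9 in all, beside 11.9% of everything tested. Day 0 lies in the first scan and day +2 in the second, so this step and scan cannot be told apart. Wnt9a fell by 1.01 ± 0.13, Dvl2 by 0.93 ± 0.14 and Fzd2 by 1.09 ± 0.24, and all 3 calls were lost without day +4, as were those of Rnf43, Wnt1 and Dact1 below. Fzd2 also missed the threshold with quantile scaling, with the authors' table, without the filter and without day -2 (adjusted p from 0.0553 to 0.0683 in limma). Several of the higher genes were dim before induction. Rspo1 was at least 2.13-fold higher on day +2, Rnf43, a ubiquitin ligase that removes Frizzled receptors, at least 1.94-fold, and Nkd1, a Dishevelled inhibitor, at least 7.39-fold. Such a bound sets the mean of the bright arrays against a floor on the dim arrays, namely the lowest signal of any probe well above background or the probe's own signal where that is higher. These 3 probes were well above background on the 4 arrays of the second scan only and passed the filter through them, so their tests are not read. Rnf43 missed the threshold with normexp correction (0.26), and a second Nkd1 probe gave -0.81. Wnt1 rose by 1.06 ± 0.17 on 1 probe, while its other probe, never well above background, gave -0.20. Wnt8a, well above background on 2 arrays and on neither of day 0, is counted among the 6, but no fold can be given. Dact1 rose by 0.91 ± 0.14. Both calls were lost with every other scaling. Tle1 (0.70 ± 0.16) and Tcf7 (0.52 ± 0.16) did not pass.

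Genes outside the pathway whose 8 values followed Sfrp2 most closely were Plcb3 (Pearson r = 0.991), Naip6 (0.991) and Hoxa7 (0.985), among 16239 genes well above background on at least 4 arrays. For Wnt6 they were Trmt2b (0.998), Atp5j2 (0.994) and Preb (0.993). Trmt2b read 2.21 to 2.52 in WT and 1.34 to 1.59 in sh8, a smaller gap than that of Wnt6. For the brighter Axin2 probe they were 1810010H24Rik (0.970), Klk1b24 (0.923) and Gm5771 (0.916). All 3 read highest on the sh8 array of day 0, at -3.51, -2.37 and -3.66, as that probe did. They were picked for their likeness to it, so the shared peak follows from the choice. The second Axin2 probe did not stand apart on that array. These correlations describe 8 arrays that the genes share.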

How the data were processed

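Per the file headers, spots were quantified by the authors with Agilent Feature Extraction 11.0.1.1 (1 colour, Cy3), and the deposited processed intensity of each spot is background-subtracted and not scaled between arrays. The series text names another array maker. Per the labels' protocols, RNA was taken with TRIzol and 1 µg was labelled. The authors also deposited a log2 value table of the same arrays, whose columns share their quantiles, have medians of 6.39 and follow their own array without centring by gene; its making is not described in the sources used here, and it served as an alternative.

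Of 44397 spots, 1377 controls were left out, repeat spots were averaged, and 46 of 39429 probes were dropped for outlier flags. RefSeq accessions, without version numbers, gave 27207 probes a symbol from a GRCm38.p6 table, used for names because the headers give build mm9, and 12176 stayed unnamed. Values were log2 minus the array's 75th percentile. A probe had to be well above background on at least 2 of 8 arrays, and the probe with the highest mean stood for its gene. Tests used limma 3.58.1 in R 4.3.3 (lmFit and eBayes, with day and line, or line by induction) with Benjamini and Hochberg adjustment over 26464 genes and transcripts. The code was also run on simulated arrays with independent noise, which cannot test the limits of the design. Nothing in the labels says that arrays of different days are separate cultures, so p-values measure only the spread between these arrays. The number of arrays limits the precision.

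All 9 genes were always named, and from each other list of pathway genes up to 4 genes past the threshold with the lowest p in sh8 against WT and in day +2 against day 0, or up to 2 where none passed. The 3 genes most like Sfrp2, Wnt6 and Axin2 were named by Pearson correlation. The genes and lists were chosen with earlier results of these data known. Alternatives were quantile scaling, normexp correction (offset 50) of the median and background median signals, the deposited table, other filters, the mean of a gene's probes, each day left out, and scan as a block or each scan alone. Normexp was meant to use mean signals, which were not used here.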

Additional observations from a re-analysis of the deposited data

How the results depend on the processing

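Of 212 comparisons of a result with an alternative, 172 kept direction and side of the threshold, 21 lost a call, 8 gained one and 11 changed sign; for those that moved the cause was not tested. With each day left out in turn, the number of the 7 genes that passed ran from 0 to 3 between the lines (2 with all arrays), from 0 to 2 from day 0 to day +2 (1 with all arrays), and from 0 to 3 after induction (4 with all arrays). Over everything tested, calls in the same fits ran from 0 to 4213 between the lines (7161 with all arrays). They ran from 1037 to 2505 from day 0 to day +2 (3149 with all arrays). After induction they ran from 2842 to 7212 (9604 with all arrays). Between the lines 0 of the 7 passed on the first scan alone, where no gene or transcript passed (8388 at an unadjusted p under 0.05 in limma). From day 0 to day +2, 2 of the 7 passed with quantile scaling, 2 with the authors' table, 2 with a filter of at least 4 arrays, and 0 with normexp correction. For the interaction 1 passed with normexp correction, Sfrp2, in a fit where 1109 of 26464 passed. Sign changes between the lines were Wnt10a on the first scan (-0.078), Wnt10b with quantile scaling (-0.13), normexp (-0.10) and the authors' table (-0.13), and Axin2 on the second scan (-0.36) and, with days left out, from -0.23 to 1.27. After induction, with days left out, Wnt6 ran from -0.20 to 0.12 and Axin2 from -1.13 to 0.36, and the mean of the Axin2 probes gave 0.26. Over the whole array quantile scaling moved the split between the lines from 4438 higher and 2723 lower to 2642 and 2570, and without day 0, 81 genes and transcripts passed in limma in place of 7161. Day is a term of the fit, so the lines are compared within days; with scan in its place the same 2 genes passed. No replicate block was added, because each group has 1 array. Signal over background limits the sh8 spot of Sfrp2 on day +4, at 9.66 scanner units, and Sfrp1, Dkk2, Wnt10a and Axin2, which read at most 24.9 scanner units, except Axin2 on the sh8 array of day 0.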

Other observations

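Against the days before induction, 23 of the 87 other pathway genes tested were higher after it and 8 lower (limma, adjusted p under 0.05), 31 in all, beside 36.3% of everything tested (7076 higher and 2528 lower). The median difference was 0.05 beside 0.17 over everything tested. With quantile scaling the counts were 15 and 12 and the median -0.09. Among receptors and co-receptors 7 of 20 were higher and 2 lower, among ligands 4 of 15 and 2, and among β-catenin targets 3 of 15 and 3. As the second scan holds all arrays after induction, scan and induction cannot be told apart in these counts. The genes tested include Rspo1, Rnf43 and Nkd1, whose probes passed the filter only through the 4 arrays of the second scan. Genes that pass in that way tend to be called higher, so the counts are not read as a result.

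Wnt10b has Wnt1 as its neighbouring coding gene on chromosome 15. The brighter Wnt1 probe read 0.14, 0.29, 1.60 and 2.02 in WT and 0.42, 0.70, 1.51 and 2.35 in sh8 in day order, so the arrays after induction were above those before it, the reverse of Wnt10b. The other Wnt1 probe was well above background on no array.

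The adipocyte markers did not move as one between the lines. Pparg, a regulator of fat cell differentiation, read 0.57, 0.57, 1.63 and 1.63 in WT and -0.58, -0.84, -0.32 and -0.21 in sh8, below WT on every day. Cebpa, another such regulator, read -4.14, -4.53, -4.12 and -3.50 in WT and -4.23, -4.01, -3.46 and -3.12 in sh8, above WT on days 0, +2 and +4. Adipoq, which encodes the fat cell hormone adiponectin, was well above background on the 4 arrays of days +2 and +4 only, and read -4.51 and -1.50 in WT and -4.92 and -5.01 in sh8.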
